A study of Macaca mulatta with 6 samples.

Results

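The vascular endothelial growth factor (VEGF) system was examined in rhesus monkey (Macaca mulatta) cultures described as spermatogonial stem cells (SSCs), through 10 core genes. These were the ligands VEGFA, VEGFB, VEGFC, VEGFD and PGF, the receptor tyrosine kinases FLT1, KDR and FLT4, and the neuropilins NRP1 and NRP2. They were taken by name from the 17795 genes listed, and all 10 were found. Of the 10, 8 had enough counts to be tested, as did 11539 genes in all, while VEGFD and FLT4 did not. Bulk RNA sequencing had been performed on 3 libraries with platelet-derived growth factor in the medium (SSC PDGF+, titled PDGF) and 3 libraries without it (SSC PDGF-, titled PDGFNO), and the comparison asks how PDGF bears on these genes. The culture methods describe cells held in gelled droplets of reduced-growth-factor basement membrane extract under a serum-containing medium that also carried GDNF, EGF, bFGF, LIF, Wnt3a, melatonin and vitamin C. VEGF is not among the listed additives. The labels name testis as the tissue in every library, place replicate 1 of each group in batch 1 and replicates 2 and 3 in batch 2, and give neither donor, age nor days in culture. The isoform of the human PDGF was not stated in the text read here.

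VEGF ligands are secreted dimers that bind receptor tyrosine kinases, chiefly known on endothelial cells. KDR (VEGFR2) carries most of the signal of VEGFA, FLT1 (VEGFR1) binds VEGFA, VEGFB and PGF tightly but signals weakly and is also made as a soluble decoy, and FLT4 (VEGFR3) binds VEGFC and VEGFD and is best known in lymphatic vessels. The neuropilins are co-receptors without kinase activity that bind some VEGF ligands as well as class 3 semaphorins. In the testis, VEGFA is known from Sertoli and Leydig cells, and its receptors occur on endothelial cells and have also been described on germ cells.

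VEGFA and FLT1 rose and NRP2 fell with PDGF. VEGFA was 8.13-fold higher and FLT1 20.8-fold higher, and NRP2 was 2.15-fold lower. The other 5 tested genes, VEGFB, VEGFC, PGF, KDR and NRP1, did not pass the threshold when the groups alone were compared. A call here is a Benjamini-Hochberg adjusted p under 0.05 over all 11539 genes in edgeR's quasi-likelihood test. With 2 of the 10 genes called higher, the background was 878 of 11539 tested genes, or 7.61%. With 1 called lower, it was 1230 genes, or 10.7%. Because replicate numbers tie libraries to a batch, the same test was also run with the replicate number as a block, which removes differences between the numbers before the groups are compared. It called 5 genes higher (VEGFA, FLT1, VEGFC, PGF and NRP1) where 31.1% of all tested genes were called higher, and 2 lower (NRP2 and VEGFB) where 29% were called lower. In VEGFA, FLT1 and VEGFC every SSC PDGF+ library lay above every SSC PDGF- library, as it did in 18.2% of tested genes. In NRP2 every SSC PDGF+ library lay below, as in 19.3%. In bulk libraries, fewer cells of a type and less RNA per cell cannot be told apart, so each level below is that of the culture as a whole.

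**Figure D1:**
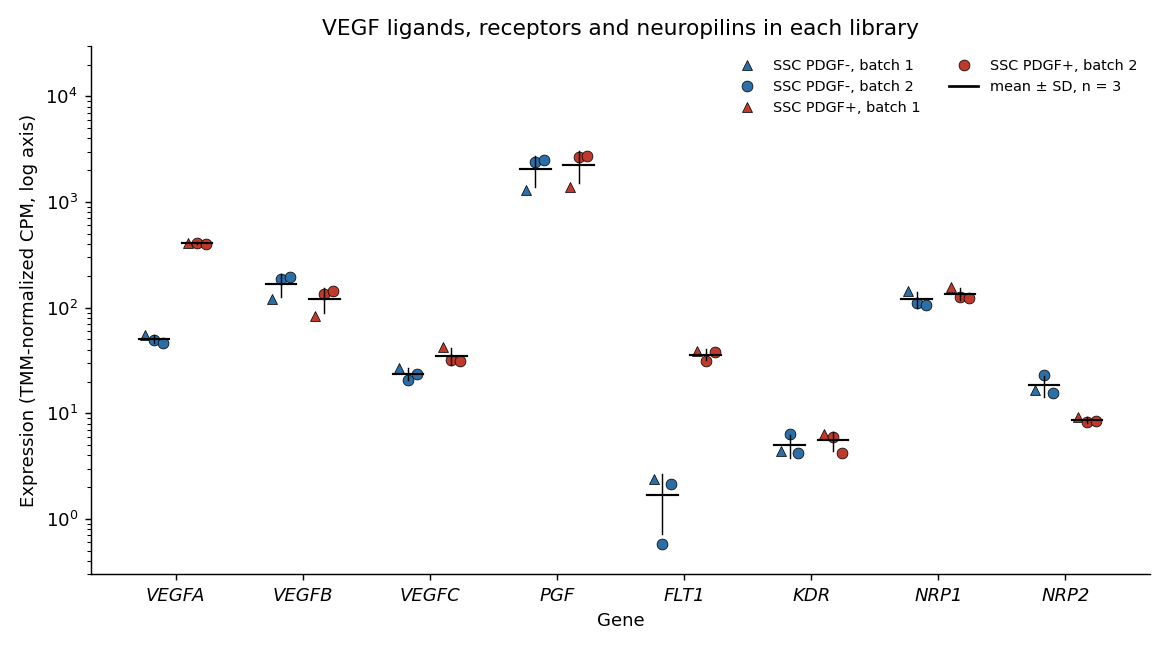
Levels of the 8 tested VEGF genes in each library, in TMM-normalized CPM on a log axis, with blue for SSC PDGF-, red for SSC PDGF+, triangles for batch 1, circles for batch 2 and bars for mean ± SD (n = 3). VEGFA lies near 409.5 CPM with PDGF and near 50.3 CPM without it, FLT1 near 36.0 and 1.70 CPM, and PGF and VEGFB differ more between batches than between groups.

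The libraries held 13095467 to 14102697 counts in SSC PDGF+ and 10593805 to 11605908 in SSC PDGF-. Nothing in the labels states that replicates came from separate cultures, so p-values measure the spread between these libraries, which may be technical. Replicates 2 and 3 were far closer to each other (chi-square per degree of freedom of 3.43 with PDGF and 3.66 without) than either was to replicate 1 (47.2 to 60.2). The SSC label was checked against 14 listed markers of undifferentiated spermatogonia. UCHL1 and ID4 were abundant, at 263.4 and 130.8 CPM with PDGF, but 9 of the 14 averaged under 1 CPM, among them GFRA1, ZBTB16, SALL4 and PIWIL4, and NANOS2 was at 0. Most of these markers thus did not bear out the label, and SSC is used here only as the name of the libraries. Fibroblast and peritubular genes summed to 14748 to 20319 CPM with PDGF and 17803 to 20292 CPM without, led by the collagen genes COL1A1 and COL1A2. Of the 16 tested, 2 (12.5%) rose and 4 (25%) fell, against 7.61% and 10.7% of all tested genes, with a median log2 difference of -0.31. With the block 6 (37.5%) rose and 8 (50%) fell, against 31.1% and 29%. Endothelial markers were low, as given below beside the receptors.

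VEGFA, the ligand that drives vessel growth and permeability, lies on the minus strand at chr4:125542856-125559420 of Mmul_10, with 4 annotated transcript models. Its levels were 412.8, 413.3 and 402.2 CPM in SSC PDGF+ replicates 1, 2 and 3, and 55.2, 49.4 and 46.3 CPM in SSC PDGF- replicates 1, 2 and 3. CPM express a gene's counts relative to the library total after scaling by the trimmed mean of M-values (TMM). The spread within each group was small against the gap between the groups, and both batches lay on the same side. The means were 409.5 CPM (SD 6.28) with PDGF against 50.3 CPM (SD 4.49) without. This is a log2 difference of 3.02 (95% interval 2.71 to 3.33, edgeR adjusted p = 3.29e-05), and VEGFA ranked 4 of 11539 genes by p. Batch 1 alone gave a log2 difference of 2.90 and batch 2 gave 3.09. Leaving out any library kept it between 2.97 and 3.09. Markers of Sertoli cells, a known source of VEGFA in the testis, summed to 1453 to 1926 CPM with PDGF and 873.8 to 1173 CPM without. Of the 5 tested only 1 (20%), CLU, rose (log2 difference 0.78, edgeR adjusted p = 0.0133), against 7.61% of all tested genes. With the block 1 (20%) rose, against 31.1%. GATA4 stood at 126.8 and 116.3 CPM. The median log2 difference of the 5 was 0.04, and 2 of the 7 listed averaged under 1 CPM, so the sums do not speak for the list as a whole. Leydig cell markers summed to 359.2 to 455.7 CPM with PDGF and 347.2 to 444.2 CPM without, led by STAR and NR5A1, with CYP11A1 at 0. Of the 8 listed, 4 averaged under 1 CPM, so these sums do not speak for that list either. Of the 4 tested 0 rose and 0 fell, with a median log2 difference of 0.31. With the block 2 (50%) rose and 1 (25%) fell, against 31.1% and 29% of all tested genes. The part of these cells in the VEGFA level was not tested.

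The region before the VEGFA start is shown because it holds the GC boxes, sites bound by Sp1 family factors, for which this promoter is known. The annotated start may lie inside the transcribed leader, so only the 60 bases from 250 to 191 bases before it are printed, at chr4:125559611-125559670 of Mmul_10, minus strand, 5′ to 3′. Capitals mark GGGCGG or its reverse complement.
VEGFA: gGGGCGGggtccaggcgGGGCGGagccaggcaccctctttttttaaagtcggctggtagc
The 2 GC boxes begin 249 and 233 bases before the annotated start. Over the 250 bases before each start, GGGCGG was found on either strand in 54.5% of the 11250 promoters of tested genes that could be read. The core of the hypoxia response element, ACGTG, was found in 20.6% of promoters and in none of the windows of the 10 VEGF genes, and the AP-1 motif TGANTCA in 4.26% and in none of them. A match describes letters only, and its absence covers only these 250 bases.

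FLT1, the high-affinity receptor, lies on the minus strand at chr17:7508603-7705050. It was at 39.2, 31.0 and 37.8 CPM in SSC PDGF+ replicates 1, 2 and 3 and at 2.38, 0.575 and 2.16 CPM in SSC PDGF- replicates 1, 2 and 3. In counts these were 581, 397 and 503 against 29, 6 and 22. FLT1 was thus thinly counted without PDGF and well measured with it, and the lowest value with PDGF was far above the highest without. The mean rose from 1.70 CPM (SD 0.984) to 36.0 CPM (SD 4.37), a log2 difference of 4.38 (95% interval 3.49 to 5.27, edgeR adjusted p = 3.43e-04). Among the 878 genes called higher, FLT1 ranked 11 by log2 difference and VEGFA ranked 38. Within batch 1 the log2 difference was 4.02 and within batch 2 it was 4.87, the latter resting on 6 and 22 counts in the SSC PDGF- libraries. The SSC PDGF- libraries alone would not have met the count filter, so FLT1 could be tested only through the SSC PDGF+ libraries. Its call, 1 of the 2 rises among the VEGF genes, therefore depends on the group where it was high. Requiring 10 counts or more in all 6 libraries would have dropped FLT1. RefSeq annotates 2 FLT1 models, which span 196448 and 107183 bases, and counts per gene do not separate them or a soluble form from the full-length receptor.

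KDR, the main signalling receptor, showed no such difference. It was at 6.41, 6.02 and 4.21 CPM with PDGF (replicates 1, 2 and 3) and at 4.43, 6.42 and 4.21 CPM without, and the groups overlapped throughout. The log2 difference was 0.15 (95% interval -0.50 to 0.79, edgeR adjusted p = 0.751), an interval that leaves room for a change of up to 1.73-fold. With the replicate block the adjusted p was 0.612. Batch 1 alone gave 0.53 and batch 2 alone -0.05. FLT4 was barely detected, with 0, 2 and 7 counts in SSC PDGF+ replicates 1, 2 and 3 and 0, 0 and 3 in SSC PDGF-. Its ratio of summed counts, 9 against 3 and scaled by library size, was 2.41 (exact Clopper-Pearson 95% interval 0.601 to 13.8). Such an interval reflects counting alone, and no difference was detectable at this depth.

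The windows before FLT1 and KDR are shown side by side because the first gene rose and the other did not pass the test. Each covers the 250 bases before the annotated start, 5′ to 3′ on the gene's strand, at chr17:7705051-7705300 (minus) and chr5:78510322-78510571 (plus) of Mmul_10. Capitals mark GGGCGG on either strand and, in FLT1, the cyclic AMP response element TGACGTCA.
FLT1: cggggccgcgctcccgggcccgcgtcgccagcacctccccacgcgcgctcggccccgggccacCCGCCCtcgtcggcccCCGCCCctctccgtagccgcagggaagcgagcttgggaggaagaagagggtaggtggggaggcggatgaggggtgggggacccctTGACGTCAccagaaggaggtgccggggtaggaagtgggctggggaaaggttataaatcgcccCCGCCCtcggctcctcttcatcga
KDR: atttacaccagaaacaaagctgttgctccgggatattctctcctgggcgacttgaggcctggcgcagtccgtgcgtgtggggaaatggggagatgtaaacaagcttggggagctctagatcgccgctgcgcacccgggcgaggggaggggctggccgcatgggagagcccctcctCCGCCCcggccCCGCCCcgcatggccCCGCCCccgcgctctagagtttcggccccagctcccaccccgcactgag
Both windows hold 3 GC boxes, which begin 187, 171 and 24 bases before the start of FLT1 and 75, 64 and 49 bases before that of KDR. The TGACGTCA of FLT1 begins 86 bases before its start. This motif was chosen after the window had been seen, and 1.94% of the 11250 promoters hold it, FLT1 alone among the 10 VEGF genes. The marked matches do not overlap.

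Endothelial markers gave the setting for these receptors. The 14 listed markers summed to 60.3 to 68.8 CPM with PDGF and 54.5 to 84.8 CPM without, led by SOX7 and EGFL7. The defining genes PECAM1, CDH5 and VWF averaged 5.74, 1.22 and 1.19 CPM with PDGF and 3.31, 1.15 and 1.74 CPM without. Of the 10 that could be tested, 1 (10%) rose and 1 (10%) fell, shares near the 7.61% and 10.7% of all tested genes. These were ADGRL4 (log2 difference 0.90, edgeR adjusted p = 0.0375) and ERG (-2.29, edgeR adjusted p = 0.0253). With the block 2 (20%) rose and 4 (40%) fell, against 31.1% and 29%. The summed endothelial level overlapped between the groups. PECAM1 did not overlap, at 6.41, 5.79 and 5.03 CPM with PDGF and 1.97, 3.26 and 4.70 CPM without (replicates 1, 2 and 3), with a log2 difference of 0.80 (edgeR adjusted p = 0.134) and, with the replicate block, 0.84 (adjusted p = 0.0183). The part of endothelial cells in the FLT1 and KDR values was not tested. Of 5 lymphatic markers, LYVE1 rose from 0.945 to 10.8 CPM and PROX1 from 1.17 to 5.03 CPM, PDPN fell from 161.2 to 83.3 CPM, RELN stood at 9.77 and 8.83 CPM with and without PDGF, and MMRN1 was at 0. Of the 4 tested lymphatic markers, 2 (50%) rose and 1 (25%) fell, against 7.61% and 10.7% of all tested genes. With the block the same counts stood against 31.1% and 29%. The summed level of the 5 was 104.4 to 112.1 CPM with PDGF and 161.9 to 184.0 CPM without. The part of lymphatic cells in the FLT4 and VEGFC values was not tested.

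NRP2, a co-receptor for VEGFC, VEGFA and the semaphorins SEMA3C and SEMA3F, lies on the plus strand at chr12:93090594-93206896. It was at 9.25, 8.21 and 8.41 CPM in SSC PDGF+ replicates 1, 2 and 3 and at 16.8, 23.3 and 15.6 CPM in SSC PDGF-. All 3 libraries with PDGF lay below all 3 without, and the spread was wider without PDGF, where replicate 2 was highest. The mean fell from 18.5 CPM (SD 4.15) to 8.62 CPM (SD 0.55), a log2 difference of -1.10 (95% interval -1.59 to -0.62, edgeR adjusted p = 0.00968). When replicates 2 and 3 of each group were summed into a single library, the log2 difference was -1.03 and the call was lost (edgeR adjusted p = 0.0898). Leaving out each library in turn kept the adjusted p between 0.0088 and 0.0484. NRP1, the neuropilin that binds VEGFA and SEMA3A, was at 156.6, 125.9 and 124.0 CPM with PDGF and 143.3, 111.7 and 106.0 CPM without (replicates 1, 2 and 3). Replicate 1 was the highest in both groups and the groups overlapped. The log2 difference was 0.17 (95% interval -0.22 to 0.56, edgeR adjusted p = 0.521), and with the replicate block 0.17 (adjusted p = 0.00942). With the block and an offset for GC content and length it was -0.02, so its direction depended on that offset.

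Markers of germ cells beyond the undifferentiated spermatogonia were also lower with PDGF. The 8 listed, led by the spermatid genes TNP1 and TNP2, summed to 49.8 to 77.3 CPM with PDGF and 418.8 to 687.0 CPM without, and STRA8 was at 0. Of the 8, 4 averaged under 1 CPM, so the sums do not speak for the list as a whole. Of the 5 that could be tested, 4 (80%) fell (DDX4, REC8, TNP1 and TNP2), against 10.7% of all tested genes. With the block 5 (100%) fell, against 29%. The part of these germ cells in the fall of NRP2 was not tested. The markers of undifferentiated spermatogonia overlapped between the groups in their sum, at 472.5 to 518.6 CPM with PDGF and 432.3 to 535.1 CPM without. UCHL1 and ID4 led this sum and 9 of the 14 listed averaged under 1 CPM, so it does not speak for the list as a whole. Of the 5 tested 1 (20%) rose and 2 (40%) fell, against 7.61% and 10.7% of all tested genes. With the block 2 (40%) rose and 3 (60%) fell, against 31.1% and 29%. In the fit on groups alone 3 of the 5 differences were negative, with a median of -0.32. Of the 5 genes whose log2 CPM across the 6 libraries lay closest to NRP2, ACRBP (r = 0.9872) and TSSK4 (r = 0.9866) encode proteins of the acrosome and of spermatids. ACRBP fell from 6.54 to 0.906 CPM (log2 difference -2.84, edgeR adjusted p = 0.00149). TSSK4 fell from 5.76 to 2.51 CPM (-1.20, edgeR adjusted p = 0.0183). The other three, APOO (r = 0.9917), MORN2 (0.9915) and PIP4K2B (0.9885), did not pass the test, with log2 differences of -0.35, -0.53 and -0.21. These r describe 6 libraries that fall into 2 groups and 2 batches, and mostly restate that split.

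PGF, the placental ligand that binds FLT1 but not KDR, was by far the most abundant VEGF gene. It ranked 76 of 17021 genes by level per length. It was at 1381, 2691 and 2706 CPM in SSC PDGF+ replicates 1, 2 and 3 and at 1300, 2394 and 2501 CPM in SSC PDGF-. Replicate 1 of each group, the batch 1 library, was low, and the groups overlapped. The log2 difference with PDGF was 0.13 (95% interval -0.59 to 0.85, edgeR adjusted p = 0.805), and its sign turned when SSC PDGF+ replicate 2 or 3 or SSC PDGF- replicate 1 was left out. With the replicate block it was 0.12 (95% interval 0.05 to 0.19, adjusted p = 0.00283), and with the block and an offset for GC content and length it was 0.51 (95% interval 0.44 to 0.58, adjusted p = 2.87e-11), so the size of the PGF difference depended on that offset.

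VEGFB, a ligand of FLT1 tied to fatty acid handling, was like PGF lowest in replicate 1 of each group, the batch 1 library. It was at 84.1, 135.7 and 143.1 CPM with PDGF (replicates 1, 2 and 3) and at 120.4, 185.3 and 195.2 CPM without. Within each batch every library with PDGF lay below every library without, but the groups overlapped. The log2 difference was -0.465 (95% interval -1.05 to 0.12, edgeR adjusted p = 0.238), and with the block -0.47 (adjusted p = 1.35e-07). Under the block with an offset for GC content and length it was 0.015 (adjusted p = 0.821), so the call made with the block did not survive that offset. VEGFB and PGF have GC-rich exons, at 65.5% and 64.0% GC against 43.6% to 61.1% in the other 8 genes.

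VEGFC, the lymphatic ligand, was at 42.7, 31.7 and 31.0 CPM with PDGF and 26.6, 20.6 and 23.8 CPM without (replicates 1, 2 and 3). The groups did not overlap, though the gap between the lowest value with PDGF and the highest without was small. The log2 difference was 0.57 (95% interval 0.13 to 1.01) and missed the threshold (edgeR adjusted p = 0.0757), while with the replicate block it was 0.56 and passed (adjusted p = 8.03e-05). Its 4 calls over 19 alternative settings were the block, batch as a term, batch 2 alone and the block with the GC and length offset. For VEGFD, the other ligand of FLT4, SSC PDGF+ replicates 1, 2 and 3 held 1, 1 and 0 counts and those of SSC PDGF- held 0, 2 and 2. With 2 counts against 4, the scaled ratio was 0.401 (exact Clopper-Pearson 95% interval 0.0363 to 2.80), which shows no difference at this depth.

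**Figure D2:**
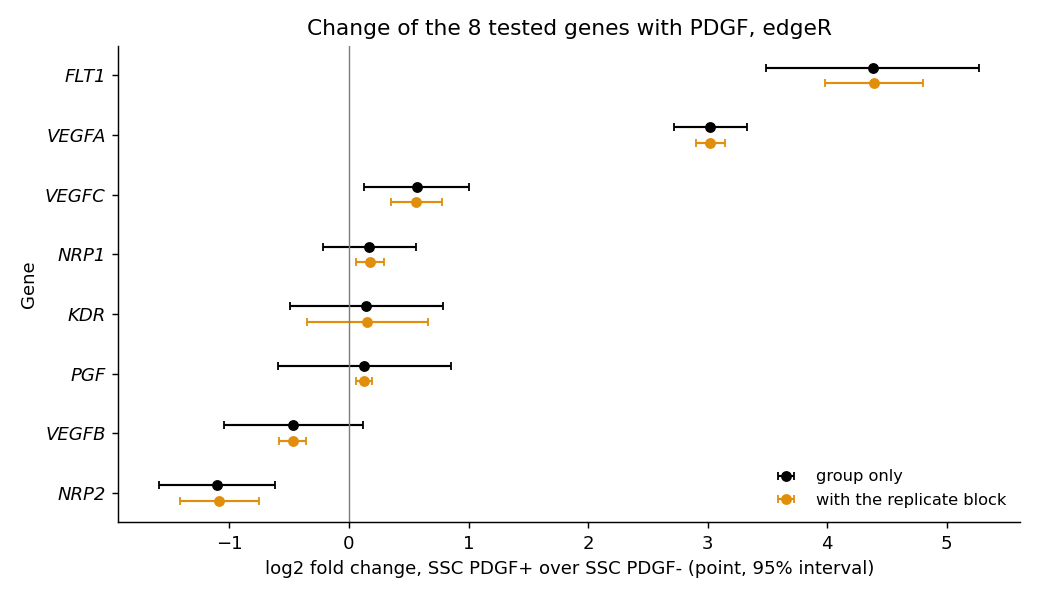
Log2 difference of SSC PDGF+ over SSC PDGF- for the 8 tested genes with 95% intervals, from edgeR on the groups alone (black) and with the replicate block (orange). The points nearly coincide for each gene and the intervals narrow with the block, so that VEGFC, NRP1, PGF and VEGFB then exclude 0 while KDR does not.

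The batches were compared directly in an edgeR fit with group and batch, a comparison added after the batch pattern of PGF and VEGFB had been seen. PGF was 1.92-fold higher in batch 2 than in batch 1 (log2 difference 0.94, edgeR adjusted p = 5.44e-16). VEGFB was 1.62-fold higher (0.69, adjusted p = 4.25e-10). NRP1 was lower in batch 2 (-0.36, adjusted p = 6.73e-06), as was VEGFC (-0.36, adjusted p = 0.00478). VEGFA, FLT1, KDR and NRP2 were not called between batches, with log2 differences of -0.09, -0.28, -0.06 and 0.05. So 2 of the 8 genes were higher in batch 2, against 29.3% of all tested genes, and 2 were lower, against 27.9%. The 4 genes called between batches are the ones whose PDGF call depended on the block.

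**Figure D3:**
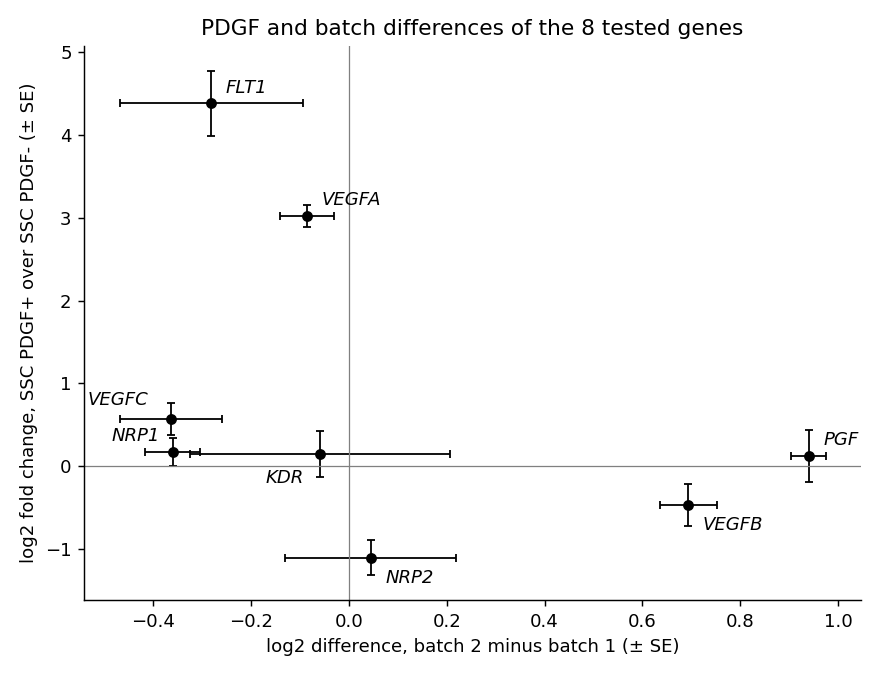
Log2 difference with PDGF (vertical, ± SE) against log2 difference of batch 2 minus batch 1 (horizontal, ± SE) for the 8 tested genes. FLT1 and VEGFA lie high on the PDGF axis and near 0 on the batch axis, and PGF, at 0.94, and VEGFB, at 0.69, lie far along the batch axis.

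To compare genes with each other, CPM were divided by the merged exon length in kilobases. Among ligands without PDGF, the order was PGF at 1089 CPM per kb (SD 350.5), VEGFB at 125.4 (SD 30.5), VEGFC at 18.7 (SD 2.38), VEGFA at 14.7 (SD 1.31) and VEGFD at 0.0545 (SD 0.0472). VEGFC and VEGFA were close neighbours in this order, separated by little more than their spread. With PDGF, VEGFA at 119.5 CPM per kb (SD 1.83) stood beside VEGFB at 90.8 (SD 24.1), with the individual VEGFB libraries at 63.1, 101.9 and 107.4, and PGF stayed highest at 1191 (SD 401.2). As a share of summed ligand level per length, VEGFA made up 12.7, 7.24 and 7.0% in SSC PDGF+ replicates 1, 2 and 3 and 1.98, 1.01 and 0.903% in SSC PDGF-. PGF held 77.0 to 85.1% with PDGF and 84.3 to 88.1% without, so ligand transcripts were mostly PGF in every library.

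Among the receptor kinases the leading gene differed between the groups. Without PDGF, KDR was at 0.858 CPM per kb (SD 0.207) and FLT1 at 0.214 (SD 0.124), and with PDGF, FLT1 was at 4.53 (SD 0.549) and KDR at 0.948 (SD 0.201). FLT1 made up 81.8, 78.8 and 85.6% of the summed receptor level in SSC PDGF+ replicates 1, 2 and 3 and 28.3, 6.19 and 26.2% in SSC PDGF-. The summed level of the 3 kinases was 5.52 CPM per kb (SD 0.537) with PDGF and 1.09 (SD 0.071) without, and FLT4 was lowest in both groups, at 0.0355 and 0.0153. Receptor transcripts were thus few beside those of the ligands, which summed to 1430 CPM per kb (SD 419.2) and 1248 (SD 377.9). Of the neuropilins, NRP1 was far the more abundant, at 22.4 CPM per kb (SD 3.03) with PDGF and 19.9 (SD 3.33) without, against 0.823 (SD 0.0525) and 1.77 (SD 0.396) for NRP2. The NRP2 share was 3.56% (SD 0.242) with PDGF and 8.29% (SD 2.24) without.

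**Figure D4:**
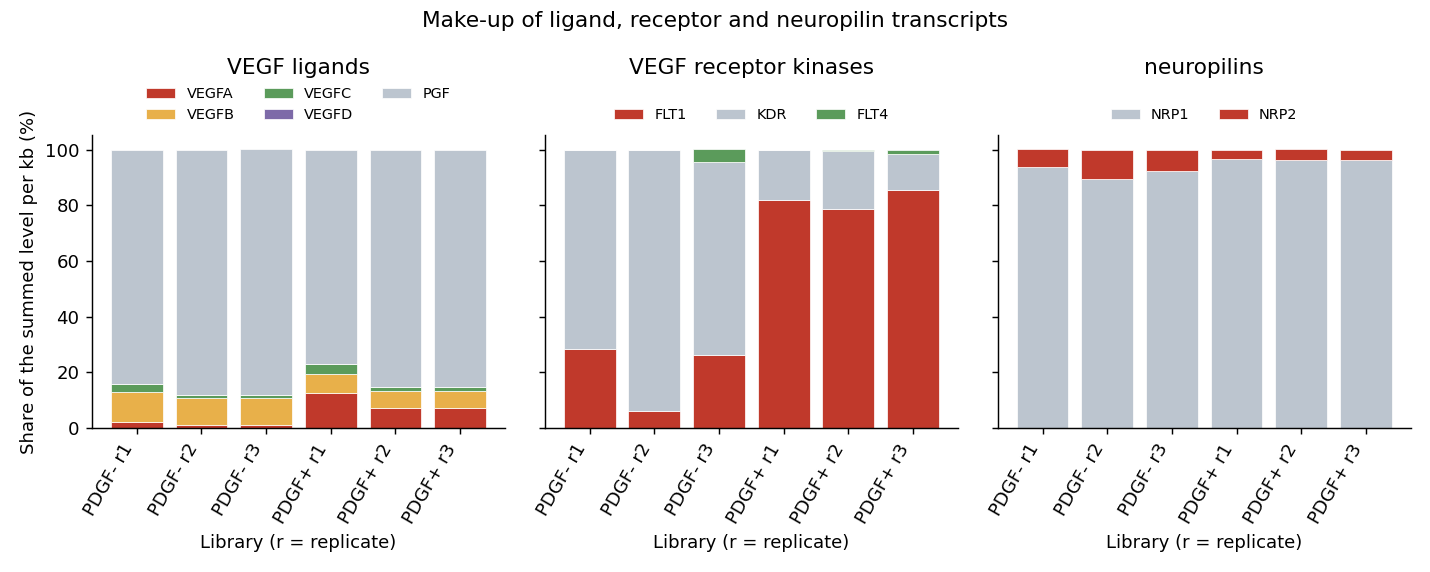
Share of each gene in the summed level per kilobase of the 5 ligands, the 3 receptor kinases and the 2 neuropilins, in percent, with 1 bar per library. PGF fills most of every ligand bar, and FLT1 takes 78.8 to 85.6% of the receptor bars with PDGF and 6.19 to 28.3% without.

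Genes that carry the signal of VEGF receptors were taken from a list of 77 genes, of which 69 could be tested. Of these 8 (11.6%) rose and 2 (2.9%) fell, where 7.61% and 10.7% of all tested genes did. With the replicate block 34 (49.3%) rose and 14 (20.3%) fell, where 31.1% and 29% of all tested genes did, and the shares of the lists below are read against these same 4 values. The median log2 difference was 0.17, against 0.018 over all tested genes. ITGB3, the integrin beta chain that associates with KDR, rose from 2.23 to 11.4 CPM (log2 difference 2.36, edgeR adjusted p = 0.00343). PXN, the focal adhesion protein paxillin, rose from 49.3 to 116.7 CPM (1.24, adjusted p = 0.0218). VAV1, a Rac exchange factor of blood cells, fell, with 1 count in all SSC PDGF+ libraries against 35 in SSC PDGF- (edgeR adjusted p = 0.00549). It had enough counts to be tested only through SSC PDGF- replicates 1, 2 and 3, with 11, 13 and 11 counts. Its call, 1 of the 2 falls in this list, therefore depends on the group where it was high. Markers of leukocytes were low in both groups, at a summed 17.7 to 19.9 CPM with PDGF and 12.6 to 20.8 CPM without, led by CD68 and CD14, and PTPRC and CD3E were at 0. PRKCD, a protein kinase C, fell from 36.4 to 21.2 CPM (-0.78, adjusted p = 0.0147).

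Of 23 tested genes that release VEGF ligands from the matrix, cleave them or bind them, 4 (17.4%) rose and 3 (13%) fell, with a median of 0.16. With the block 11 (47.8%) rose and 9 (39.1%) fell. MMP9, a gelatinase that frees bound VEGFA, rose from 130.2 to 493.3 CPM (log2 difference 1.92, edgeR adjusted p = 0.00395). ADAMTS1, a protease that can bind VEGFA, rose from 160.9 to 340.3 CPM (1.08, adjusted p = 0.00488), and PLAT, the tissue plasminogen activator, from 82.6 to 132.0 CPM (0.68, adjusted p = 0.0329). MMP2, the other gelatinase, moved the opposite way, from 6158 to 2836 CPM (-1.12, adjusted p = 0.0017). MMP7, a matrix protease, fell from 22.4 to 7.46 CPM (-1.59, adjusted p = 0.00477), and PTN, a growth factor that can bind VEGFA, from 137.3 to 85.0 CPM (-0.69, adjusted p = 0.034). The summed level of this list was lower with PDGF, at 6052 to 7196 CPM against 9366 to 10793 CPM, and MMP2 alone made up much of it.

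Factors that act on VEGFA transcription or on its mRNA moved both ways: of 21 tested, 4 (19.0%) rose and 3 (14.3%) fell, with a median of 0.07. With the block 8 (38.1%) rose and 6 (28.6%) fell, shares near those of all tested genes. HIF1A, the oxygen-regulated subunit of the hypoxia-inducible factor (HIF), rose from 568.5 to 1297 CPM (log2 difference 1.19, edgeR adjusted p = 0.00573). SP3, a GC box factor, rose from 60.6 to 108.8 CPM (0.84, adjusted p = 0.00969), while its relative SP1 did not pass the test (-0.36, adjusted p = 0.0894). ZFP36, which speeds the decay of AU-rich mRNAs, rose from 19.8 to 33.5 CPM (0.76, adjusted p = 0.0198), and its relative ZFP36L1 fell from 736.2 to 359.9 CPM (-1.03, adjusted p = 7.66e-04). ARNT2, a HIF partner, fell from 13.5 to 5.66 CPM (-1.25, adjusted p = 0.0125). EGLN3, a HIF prolyl hydroxylase that is also a HIF target and is counted in both lists, fell from 58.1 to 9.96 CPM (-2.55, adjusted p = 8.7e-05). SP1 was named after its value had been seen.

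VEGFA and FLT1 are known targets of HIF. Other known targets, in a list chosen with earlier results of these data known, were mostly higher. Of 22 tested, 15 (68.2%) rose, against 7.61% of all tested genes, and 1, EGLN3, fell (4.55%, against 10.7%), with a median log2 difference of 1.05. With the block 20 (90.9%) rose, against 31.1%, and 1 fell. NDRG1, a stress-response gene, was at 339.5, 401.5 and 412.4 CPM in SSC PDGF+ replicates 1, 2 and 3 and 44.5, 56.4 and 57.2 CPM in SSC PDGF- (log2 difference 2.87, edgeR adjusted p = 5.68e-05). HK2, the hexokinase that starts glycolysis, was at 125.4, 126.9 and 126.0 CPM with PDGF and 26.1, 24.2 and 21.0 CPM without (2.41, adjusted p = 8.05e-05). VLDLR, a lipoprotein receptor, rose from 21.3 to 94.2 CPM (2.14, adjusted p = 1.06e-04). In all 3 of these genes the groups were far apart and the libraries of each group close together. ADM, the HIF target adrenomedullin, stood at a log2 difference near 0 (-0.001, adjusted p = 0.997) and was named after its value had been seen. All of these are mRNA levels, HIF protein was not measured, and the part of HIF in the VEGFA and FLT1 values was not tested.

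The 5 genes whose log2 CPM across the 6 libraries lay closest to VEGFA, out of 10305 compared, were COL4A1 (r = 0.9999), HK2 (0.9994), CA12 (0.9991), PTDSS1 (0.9991) and VLDLR (0.9990). COL4A1, a basement membrane collagen, rose from 101.0 to 412.7 CPM, and CA12, a carbonic anhydrase, from 76.0 to 293.4 CPM. HK2, CA12 and VLDLR are also in the list of HIF targets. Closest to FLT1 were RNF4 (r = 0.9986), IFNAR1 (0.9978), COL25A1 (0.9973), SUSD1 (0.9969) and TOR1AIP2 (0.9968). COL25A1, a membrane collagen, was, like FLT1, low without PDGF, at 0.147 CPM against 3.57 CPM with it. Like FLT1, it had enough counts to be tested only through the SSC PDGF+ libraries, the group where it was high. IFNAR1, an interferon receptor chain, rose from 21.0 to 42.8 CPM. As for NRP2, these r follow the split of the libraries by group.

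The other ligands and receptors that share the neuropilins were lower or did not pass the test. Of 10 tested class 3 semaphorins and plexins, which are the guidance cues that bind neuropilins and the receptors that carry their signal, listed with the neuropilin adaptor GIPC1, none rose in edgeR and 5 (50%) fell, against 10.7% of all tested genes, with a median log2 difference of -0.71. With the block 1 (10%) rose and 8 (80%) fell, against 31.1% and 29%. The count of rises was also 0 at an unadjusted p under 0.05 in edgeR, in DESeq2 and in limma-voom, and 9 of the 10 differences were negative. SEMA3A, the ligand of NRP1, had 4, 2 and 0 counts in SSC PDGF+ replicates 1, 2 and 3 and 13, 10 and 21 in SSC PDGF- (log2 difference -3.13, edgeR adjusted p = 0.0242). It had enough counts to be tested only through the SSC PDGF- libraries. Its call, 1 of the 5 falls, therefore depends on the group where it was high. SEMA3B fell from 5.83 to 1.35 CPM (-2.11, adjusted p = 0.0128), and PLXNA4, a semaphorin receptor, from 5.80 to 1.26 CPM (-2.20, adjusted p = 0.00198). SEMA3G was at 0 in every library. The most abundant of those called, PLXND1, fell from 273.0 to 113.3 CPM (-1.27, adjusted p = 0.00412) and was named after its value had been seen.

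Among 19 tested genes of other vascular growth factor systems, 4 rose and 4 fell (21.1% each way), with a median of -0.13. With the block 7 rose and 7 fell (36.8% each way). CALCRL, the receptor that binds adrenomedullin together with a RAMP protein, rose from 25.5 to 67.1 CPM (log2 difference 1.39, edgeR adjusted p = 0.00363), and its partner RAMP2 fell from 8.04 to 1.83 CPM (-2.12, adjusted p = 0.00153). HGF, the hepatocyte growth factor, rose from 45.5 to 90.4 CPM (0.99, adjusted p = 0.0233), and its receptor MET fell from 12.5 to 4.20 CPM (-1.57, adjusted p = 0.00319). NOTCH1 rose from 3.44 to 8.57 CPM (1.32, adjusted p = 0.0401), and the Notch ligand JAG1 fell from 13.8 to 2.83 CPM (-2.28, adjusted p = 9.37e-04).

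**Figure D5:**
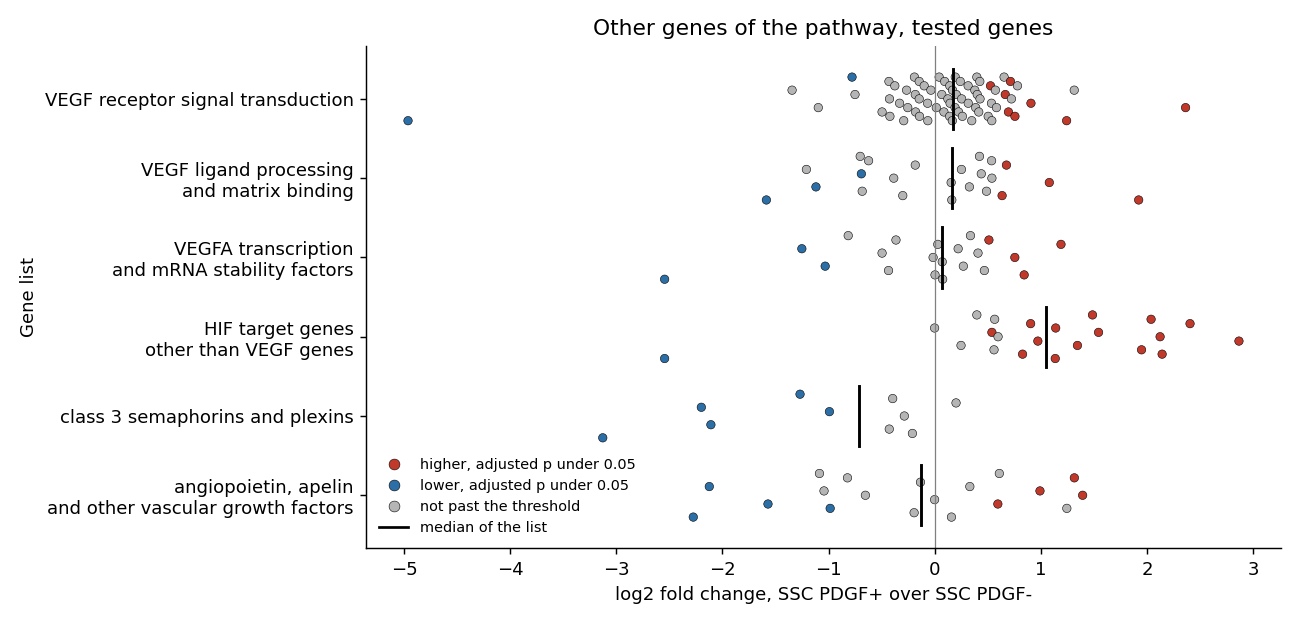
Log2 difference of SSC PDGF+ over SSC PDGF- for every tested gene of the 6 pathway lists, with red for higher and blue for lower at an edgeR adjusted p under 0.05, grey for the rest and a bar at each list's median. The HIF targets are shifted to the right, with a median of 1.05, the semaphorins and plexins to the left, with a median of -0.71, and the other lists centre within 0.17 of 0.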

How the data were processed

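The authors deposited expected counts per gene, without normalization, for 6 bulk libraries. Of these values 34, in 13 genes, were not whole and were rounded, none of them in the 10 VEGF genes. The submitters' processing notes name fastp, HISAT2 2.1.0, SAMtools, featureCounts 2.0.1 and the builds Mmul_10 and Mmul_8.0.1 without roles. Of 2686 LOC identifiers, 2682 match annotation release 103 of Mmul_10, which supplied positions, exon lengths, GC content and sequences (17389 of 17795 names matched). Whether counting used strand is not given in the sources used here. No VEGF gene shared exons with another gene or had identical counts to another.

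The steps computed here used edgeR 4.0.16 in R 4.3.3: TMM, filterByExpr by group, a quasi-likelihood test on group alone, two-sided, with Benjamini-Hochberg adjustment. CPM were made from the deposited counts. Log2 differences are SSC PDGF+ minus SSC PDGF-, and within-batch ones added 0.5 counts. Same-numbered libraries share a batch by the labels, and across genes they deviated together from the means of their groups (r = 0.728 for number 1, 0.35 for number 2 and 0.374 for number 3). The replicate block was therefore run as an alternative. The cross pairs of batch 2 gave 0.36 and 0.393, no lower than its same-numbered pairs. These values thus show pairing by batch and none by number beyond it. Further alternatives were RLE, upper quartile and no factors, other filters, batch 2 alone, batch as a model term, the block with a GC and length offset (4 spline degrees of freedom, known for 97.4% of tested genes), replicates 2 and 3 summed, each library left out, limma-voom (limma 3.58.1) and DESeq2 1.42.0. The batch comparison and the motif search were added after the data were seen.

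The VEGF genes and the lists were chosen with earlier results of these data known. The text names all 10 VEGF genes, up to 3 genes a direction with the largest difference among those called in each pathway list, the 5 genes with the highest Pearson r to VEGFA, FLT1 and NRP2 at an average log2 CPM of at least 1 (prior count 2), and for markers the 2 most abundant and those at 0. Of the genes this rule names, 1 is not reported here. Other markers named, such as PECAM1 and LYVE1, were chosen after their values were seen. On simulated data for this comparison, over 11410 tested genes, edgeR recovered 54 of 100 genes changed by an absolute log2 difference of 1 and 92 of 99 changed by 2, with 11 false calls. The simulated libraries were drawn independently and had no batches. These figures therefore do not cover the batch structure of the real libraries. Figures were drawn with matplotlib 3.10.9, and tables were made in pandas 2.3.3 and scipy 1.17.1 under Python 3.11.15. Protein sequences were not used here.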

Additional observations from a re-analysis of the deposited data

How the results depend on the processing

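Over the alternatives run, the VEGFA log2 difference lay between 2.96 and 3.09 and was called in 19 of 19, that of FLT1 lay between 3.99 and 4.71 and was called in 18 of 18, and that of NRP2 lay between -1.24 and -0.90 and was called in 18 of 19, the exception being replicates 2 and 3 summed (-1.03, edgeR adjusted p = 0.0898). The count of VEGF genes called higher, 2, became 5 with the replicate block, with batch as a term and in batch 2 alone, 4 with the replicate block and the GC and length offset, and 1 with at least 10 counts in every library, which drops FLT1. The count called lower, 1, became 2 with the replicate block, with batch as a term and in batch 2 alone, and 0 with replicates 2 and 3 summed. Genes called higher, 878, became 3587 with the replicate block, 3604 with batch as a term, 3041 in batch 2 alone, 3316 with the block and offset, 206 with the sums, which leave 4 libraries, and 358 at an adjusted p under 0.01, and genes called lower, 1230, became 3347, 3387, 3085, 3231, 487 and 544. Leaving out a library gave 435 to 1284 higher and 726 to 1726 lower, below the full counts by over 1.5 times without SSC PDGF+ or SSC PDGF- replicate 2 or 3 (435, 447, 444 and 441 higher, 733, 726, 762 and 735 lower). Signs turned for VEGFB (0.015), KDR (-0.008) and NRP1 (-0.016) with the block and offset, for KDR in batch 2 alone (-0.078), and for PGF without SSC PDGF+ replicate 2 (-0.005) or 3 (-0.011) or SSC PDGF- replicate 1 (-0.129), with a highest value of 0.396 over the libraries left out and 0.51 with the block and offset; for each of these the cause was not tested. Without length scaling, the VEGFA share of ligands was 15.5% with PDGF and 2.40% without, the FLT1 share with PDGF 86.1%, and the NRP2 share 6.02% and 13.5%. Depth limits FLT1 without PDGF, VEGFD and FLT4, and the 3 libraries a group, of which 2 share a batch, limit the rest.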
